A study of Bos taurus with 4 samples.

Results

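Fragments of tRNA-Met, the transfer RNA that carries methionine, were followed in small RNA libraries of bovine germinal vesicle oocytes, in which meiosis is arrested in prophase. The members were all names in the annotation of the 4 libraries that give a nuclear tRNA gene copy of a type beginning with Met, and the reads of a sequence were divided equally among its names. This gave 127 names (a fragment kind and a gene copy) of 38611 in all, from 34 gene copies, with 531 distinct sequences of 2468643. The groups were 2 input libraries (RNA of the oocytes with no antibody) and 2 libraries of RNA recovered with an anti-Tdrkh antibody, here called the TDRKH IP. The labels name no strain, age or number of oocytes, and no precipitation with a control antibody was analysed here, so RNA bound with TDRKH and RNA carried along by the precipitation cannot be told apart. Nothing says that the 2 libraries of a group came from separate oocyte collections, so each p-value reflects only the spread among the libraries at hand, which may be technical.

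Vertebrate cells use methionine tRNAs in 2 roles. The initiator tRNA brings the first methionine of every protein to the ribosome, and elongator tRNAs insert methionine inside proteins. Mature tRNAs end in CCA at the 3′ end, added after transcription. Cleavage in the anticodon loop, by ribonucleases such as angiogenin, gives half-molecules, and other cuts give shorter fragments. TDRKH binds PIWI proteins through its tudor domain, and PIWI proteins carry piRNAs, which guard the germ line against transposons. The study concerns its complex with the PIWI protein PIWIL3.

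The reads allowed most of an initiator-type tRNA-Met to be put together, and it is shown here because every later position refers to it. Of the 34 copies, 17 were linked to each other by reads that carry only tRNA-Met names, and overlapping reads of these copies were merged base by base. The 2 largest sets of copies gave 2 forms of 75 nt that differed by 1 substitution, G19A, counted from 1 at the first base. Only positions 1 to 35 were read separately for each form: positions 36 to 75 were added from the same reads for both, so a difference between the forms there could not be seen. The anticodon is in capitals.

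Form of 6 copies: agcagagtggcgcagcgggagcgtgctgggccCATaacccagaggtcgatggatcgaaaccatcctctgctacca

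Form of 10 copies: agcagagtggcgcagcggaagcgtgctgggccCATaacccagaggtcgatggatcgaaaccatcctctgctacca

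The anticodon occupied positions 33 to 35. The bases GGG at positions 28 to 30, read in both forms, and CCC at 38 to 40, from the shared reads, flank the anticodon loop, and a run of 3 G-C pairs at this place is known from initiator tRNAs, which is why these 17 copies are called initiator-type. No tRNA reference was used, and the stretch between the anticodon and the 3′ fragment was thinly read, with as few as 5 reads behind a base. All 443 sequences and 1589 reads of these copies could be placed on the forms with at most 3 differences. Of these, 97 sequences and 845 reads were placed with no difference. A smaller family of 12 copies with 45 sequences had TCT in the place of CCC and was not given a role. One further copy had 3 reads, all in input 2. The other 4 copies had no read of their own, since their reads also carried other names.

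The depth behind these values is uneven. The inputs held 1079364 and 1354003 listed reads and the IPs 11138905 and 11060320, so 1 read was worth 0.926 and 0.739 RPM (reads per 1000000 listed reads) in the inputs but 0.0898 and 0.0904 RPM in the IPs. Reads named for piRNA clusters made up most of every library. The microRNAs listed for oocytes were miR-10a, miR-30d, miR-92a and let-7a, and whether they are specific to oocytes was not tested. Of these, 4 of 4 were lower in both IPs than in both inputs. Their summed level was 5292 and 5743 RPM in the inputs and 59.1 and 82.6 RPM in the IPs. The 5 markers of cumulus and granulosa cells, at 449 and 505 RPM in the inputs, were at 6.28 and 12.8 RPM in the IPs, and the 2 erythroid markers were at 0 in every library. The summed levels of the liver, leukocyte, smooth muscle and epithelium lists were also lower in both IPs. Bovine microRNA reads as a whole numbered 19127 and 24591 in the inputs and 6712 and 8125 in the deeper IPs. The fall is therefore not particular to any of these lists. The part of other cell types in the tRNA-Met reads was not tested.

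tRNA-Met was strongly lower in the TDRKH IP than in the input. After division among names, the inputs held 525 and 840 tRNA-Met reads, which is 486 and 620 RPM. The IPs held 183 and 119 reads, which is 16.4 and 10.8 RPM. Both IPs lay far below both inputs. The log2 change was -5.35 ± 0.25 (SE, n = 2 and 2, adjusted p = 5.2e-40 by edgeR's quasi-likelihood test with Benjamini-Hochberg adjustment over 54 RNA classes and tRNA types). Of the features in that fit, 87% were lower in the IP, so the direction alone does not set tRNA-Met apart. With microRNA reads as library size the change was -0.56 ± 0.36 (adjusted p = 0.21, edgeR). TMM factors gave -2.70 ± 0.22 and DESeq2's own size factors -2.36 ± 0.29, both past the threshold. Every share is of listed reads, so more piRNA reads lower every other share. Reads named for piRNA clusters numbered 958026 of 1079364 and 1189004 of 1354003 listed reads in the inputs. In the deeper IPs they numbered 10788265 of 11138905 and 10704584 of 11060320. They were thus most of the listed reads in both groups, and their raw counts largely follow depth. How much of the fall of tRNA-Met comes from such dilution was not tested.

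Among the 23 nuclear tRNA types, no other type had so low a log2 change as tRNA-Met under its own name. Next came tRNA-Glu at -3.60 ± 0.20 and tRNA-Lys at -3.32 ± 0.20. tRNA-Met made up 2.38% and 2.57% of nuclear tRNA reads in the inputs and 0.321% and 0.236% in the IPs. With the other nuclear tRNA reads as library size, the difference itself was -3.18 ± 0.20 on the log2 scale (adjusted p = 0.00017, edgeR), in a table where 53.7% of the features were lower. This value depends on which reads are called tRNA-Met: with the 3′ fragments listed under a microRNA name added (described further on), it was -0.82 ± 0.12 (adjusted p = 0.0025, edgeR). The rank depends on it too: the total was then -2.99 ± 0.22, and tRNA-Glu and tRNA-Lys were lower. With each distinct sequence counted once tRNA-Met was at -3.20, with tRNA-Lys and tRNA-Leu lower.

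The mix of fragment kinds differed between the groups. The 5′ half-molecules (5p-tR-half), which begin at the first base and are 30 nt or longer in these names, were the main kind in the input. They held 342 and 578 reads in the inputs, or 317 and 427 RPM. In the IPs they held 19 and 9 reads, or 1.71 and 0.814 RPM. The log2 change was -8.18 ± 0.35 (adjusted p = 4.3e-77, edgeR over 213 kinds and classes, of which 67.6% were lower). It was smaller but past the threshold under other scalings, at -5.95 with TMM factors, -4.77 under DESeq2's own size factors and -3.43 with microRNA reads as library size. Half-molecules were 65.1% and 68.8% of the tRNA-Met reads in the inputs and 10.4% and 7.54% in the IPs. In the IPs only 8 and 3 reads of the initiator-type copies ran from the first base into the anticodon loop, against 342 and 574 in the inputs.

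The short 5′ fragments (5p-tRF), which begin at the first base and end before the anticodon loop, were the other kind at the 5′ end. The inputs held 24 and 30 reads, or 22.3 and 22.2 RPM, and the IPs 95.2 and 48.3 reads after division, or 8.54 and 4.36 RPM. In RPM the IPs were below the inputs (log2 change -1.78 ± 0.39, adjusted p = 1.3e-05, edgeR). Without input 1 the adjusted p was 0.19 and without input 2 it was 0.21. As a share of tRNA-Met reads these fragments were 4.57% and 3.57% in the inputs and 52.0% and 40.4% in the IPs. The direction depended on the scaling: the change was 0.53 with TMM factors (adjusted p = 0.49, edgeR), 1.64 ± 0.55 under DESeq2's own size factors (adjusted p = 0.0044), and 2.999 ± 0.40 with microRNA reads as library size (adjusted p = 1.6e-12, edgeR, where 36.2% of the features were higher).

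Reads of the kind misc-tRF, which fit no end-anchored definition, numbered 137 and 209 in the inputs and 37.8 and 39.1 in the IPs. Their log2 change was -5.34 ± 0.35 (adjusted p = 4.1e-42, edgeR). It was -3.06 with TMM factors and -1.87 under DESeq2's own size factors, both past the threshold, and with microRNA reads as library size the call was lost (-0.59 ± 0.36, adjusted p = 0.14, edgeR). In the inputs most ended in the anticodon loop but did not begin at the first base. Such reads of the initiator-type copies, from positions 2 to 30, numbered 120 and 192 in the inputs, against 4 and 9 in the IPs. Position 3 was the commonest of these starts, with 72 and 132 reads in the inputs. Others began further in, such as position 14 with 10 and 18 reads, so shorter internal fragments are included.

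The 3′ kinds were thin. The 3p-CCA-tRF, which end in CCA, held 9 and 11.9 reads in the inputs and 11 and 5 in the IPs, a log2 change of -3.54 ± 0.61 (adjusted p = 2.6e-08, edgeR). Without input 1 the adjusted p was 0.071 and without input 2 it was 0.085. The 3p-tRF held 9 and 3 reads in the inputs and 20 and 18 in the IPs, a change of -1.53 ± 0.62 (adjusted p = 0.021, edgeR). Without input 1 this change was -0.37 (adjusted p = 0.74), without TDRKH IP 1 the adjusted p was 0.10 and without TDRKH IP 2 it was 0.14. The direction of both kinds also depended on the scaling: with microRNA reads as library size the change was 1.17 for 3p-CCA-tRF (adjusted p = 0.14, edgeR) and 3.17 for 3p-tRF (adjusted p = 1.5e-06), and for 3p-tRF it was 0.93 with TMM factors and 1.90 under DESeq2's own size factors, neither past the threshold. The 3p-tR-half held 4 and 8 reads in the inputs and none in the IPs, and the floor of 3 counts over both IPs put it at least 36.5-fold lower there. Without input 1 its adjusted p was 0.090 and without input 2 it was 0.13.

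**Figure D1:**
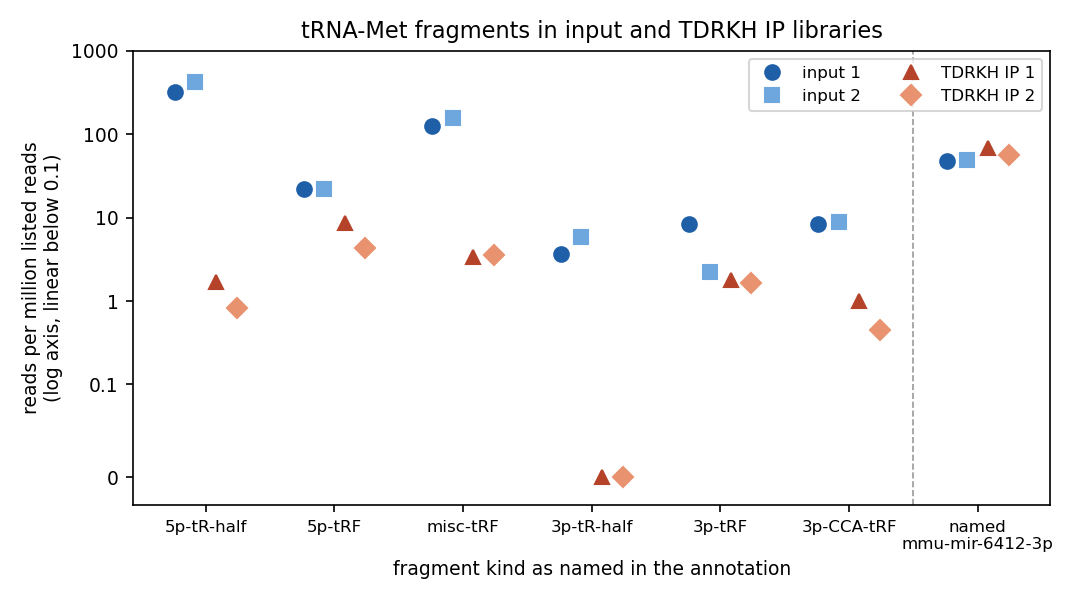
RPM (log axis, linear below 0.1) of each tRNA-Met fragment kind in the 2 input and 2 TDRKH IP libraries, with reads named mmu-mir-6412-3p at the right. The 5p-tR-half sit at 317 and 427 RPM in the inputs and at 1.71 and 0.814 in the IPs, while reads named mmu-mir-6412-3p sit at 47.25 and 48.7 in the inputs and at 68.3 and 56.2 in the IPs.

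Within each kind, tRNA-Met was compared with the other nuclear tRNA types. Among 5′ half-molecules tRNA-Met made up 2.83% and 3.12% of reads in the inputs and 4.16% and 1.69% in the IPs. The log2 change was -0.05 ± 0.44 (adjusted p = 0.97, edgeR), with an interval from -0.92 to 0.82. The fall of tRNA-Met half-molecules was thus not separated from that of the pooled half-molecule reads, in which abundant types weigh most. Type by type the picture differed: the median change of the 16 types in this fit was 1.22, and 4 types had a lower change than tRNA-Met. Of the 16 types, 4 were called higher and 1 lower. Among misc-tRF the share was 2.10% and 2.20% in the inputs and 0.0926% and 0.108% in the IPs, a change of -4.42 ± 0.25 (adjusted p = 7.5e-21, edgeR). None of the 22 tRNA types with misc-tRF reads fell further. Among 5p-tRF the share was 1.24% and 1.29% in the inputs and 0.798% and 0.462% in the IPs (-1.001 ± 0.36, adjusted p = 0.026, edgeR). That call ended where only sequences of 1 tRNA type were used (adjusted p = 0.053). Over all kinds 20.3% of the types were lower in these fits. Within misc-tRF 9 of the 22 types were lower and 6 higher, and within 5p-tRF 5 of 22 were lower and 5 higher. The exact permutation test of 2 against 2 libraries cannot go below p = 0.33, the value it gave for misc-tRF and 5p-tRF, and for 5p-tR-half it gave p = 1.

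For comparison, half-molecules were the main kind in the inputs for tRNA-Gly (63.0% and 63.2% of its reads), tRNA-Glu (57.6% and 63.4%) and tRNA-Lys (58.9% and 58.4%) too. In the IPs the remaining reads differed by type. For tRNA-Gly 88.6% and 87.5% were misc-tRF, and for tRNA-Lys 81.0% and 77.0% were 5p-tRF. The other 2 types were more mixed. tRNA-Glu had 72.3% and 76.6% as misc-tRF beside 25.2% and 21.5% as 5p-tRF. tRNA-Met had 52.0% and 40.4% as 5p-tRF beside 20.6% and 32.7% as misc-tRF.

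By name, 31 of the 127 tRNA-Met names passed the filter on low counts, and all of these 31 were lower in the IP, against 58.3% of the 5414 names tested. They were 16 names of 5p-tR-half and 15 of misc-tRF, the kinds high in the input, so this count supports nothing about the other 96 names. The 5 names highest in the input were the 5p-tR-half of copies trna1429, trna1445, trna1446, trna1448 and trna1488. They share the same reads, so each was at 37.4 and 50.7 RPM in the inputs and 0.0898 and 0.0151 RPM in the IPs (log2 change -9.41 ± 0.51, adjusted p = 5.5e-06, edgeR). The 5 names highest in the IPs were the 5p-tRF of trna1416, trna1459, trna1491, trna3446 and trna3494. These again share reads, at 1.85 and 0.886 RPM in the inputs and 0.591 and 0.279 RPM in the IPs, and were under the filter. The name counts therefore describe 2 sets of reads and not 10 genes.

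The sequences highest in the input were half-molecules, shown because their ends and their differences carry the pattern. In the 35-nt and 33-nt reads without a difference the capitals mark the anticodon, and in the others the base that differs from the merged sequence.

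Input 1st: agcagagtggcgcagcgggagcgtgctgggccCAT

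Input 2nd: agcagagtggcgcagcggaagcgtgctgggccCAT

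Input 3rd: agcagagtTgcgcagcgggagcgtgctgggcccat

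Input 4th: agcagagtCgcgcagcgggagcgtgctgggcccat

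Input 5th: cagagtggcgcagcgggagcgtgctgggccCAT

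The first had 93 and 156 reads in the inputs and 3 and 0 in the IPs. It is the half-molecule of the 6-copy form that ends at the last base of the anticodon. The second, its counterpart of the 10-copy form, had 42 and 56 reads in the inputs and none in the IPs. The third (G9T) had 26 and 37, the fourth (G9C) 16 and 27, and the fifth, which lacks the first bases, 13 and 30, each with none in the IPs. Only 7 tRNA-Met sequences reached 10 RPM in 2 libraries, and 7 of 7 were lower in the IP (edgeR, largest adjusted p = 3.5e-13, with 19.9% of 11786 sequences lower). A sequence had to be high in the input to reach that level, so this count is a description.

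The sequences highest in the IP were of another shape. Capitals mark the base added after CCA, and the others have none.

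IP 1st: agcagagtggcgcagcggaagcgtgctgg

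IP 2nd: tcgaaaccatcctctgctaccaA

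IP 3rd: agcagagtggcgcagcggaa

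IP 4th: agcagagtggcgcagcggaagcgtgctggg

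IP 5th: agcagagtggcgcagcggaag

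The first, of 29 nt, had 2 and 3 reads in the inputs and 12 and 11 in the IPs. The second, of 23 nt, is a 3′ fragment with an A beyond CCA and had 0 reads in both inputs and 12 and 11 in the IPs. A read in the IPs weighs so little that 1.08 and 0.99 RPM would be about 1 read in an input, so its absence there is within what the depth allows. The third, of 20 nt, had 7 and 0 reads in the inputs and 10 and 3 in the IPs, and the fourth, of 30 nt, had 0 in the inputs and 7 and 3 in the IPs. The fifth had 2 and 1 reads in the inputs and 6 and 2 in the IPs. None reached the level for a test, and each 5′ fragment of these 5 came from the 10-copy form. Without its last A, the second is listed under a microRNA name, described further on. That 22-nt sequence had 34 and 32 reads in the inputs and 615 and 480 in the IPs. The rank of the 23-nt sequence thus holds only among reads under the tRNA-Met name.

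Read lengths followed the kinds. Reads of 31 to 36 nt were 78.5% and 86.1% of tRNA-Met reads in the inputs and 8.20% and 4.19% in the IPs. Reads of 35 nt alone were 50.7% and 49.5% in the inputs and 2.19% and 0.838% in the IPs. In the IPs reads of 18 to 24 nt were 53.8% and 56.4%, against 16.4% and 10.5% in the inputs. Reads of 25 to 30 nt were 38.0% and 39.4% in the IPs and 5.15% and 3.45% in the inputs. The groups did not overlap in any of these classes, and the mean length was 32.1 ± 0.51 nt in the inputs and 24.4 ± 0.34 nt in the IPs (SD, n = 2 each, exact permutation p = 0.33, the smallest possible). The listed reads end at 36 nt, so longer half-molecules were not analysed here.

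**Figure D2:**
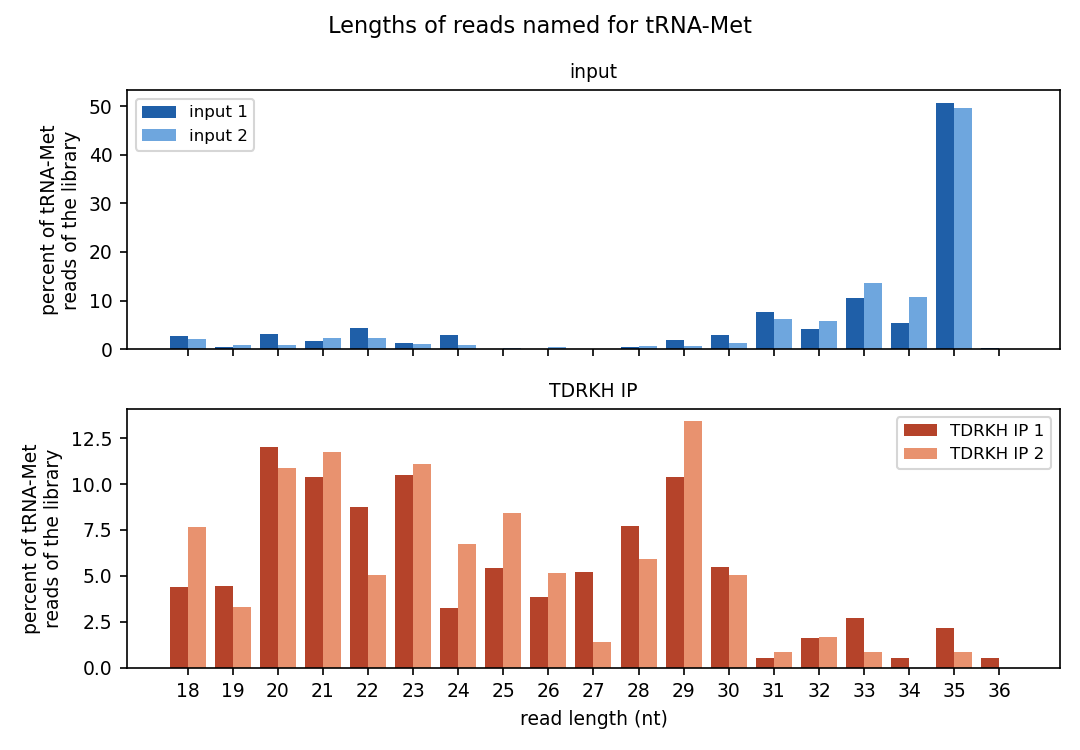
Percent of the tRNA-Met reads of each library by read length in nt, the 2 inputs above and the 2 TDRKH IPs below, with different y axes. The inputs peak at 35 nt with 50.7% and 49.5%, and the IPs spread from 18 to 30 nt.

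A was the commonest first base of reads under the tRNA-Met name in both groups, and the merged initiator-type molecule itself begins with A. It was the first base of 73.1% and 75.4% of tRNA-Met reads in the inputs and of 65.1% and 52.8% in the IPs. T began 3.05% and 1.43% of reads in the inputs and 21.8% and 32.1% in the IPs. C began 16.4% and 17.98% in the inputs and 5.47% and 10.1% in the IPs. For A, C and T the groups did not overlap (exact permutation p = 0.33). With reads named mmu-mir-6412-3p counted, the commonest first base of the IPs turned to T, at 81.1% and 84.6% against 12.7% and 8.64% for A, while in the inputs A stayed commonest at 67.5% and 71.96%. Within the 3p-tRF, T began 83.3% of the pooled input reads and 97.4% of the pooled IP reads, while within the 5p-tRF A began 98.1% and 97.6%.

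The ends of the reads were placed on the initiator-type molecule. Reads beginning at position 1 were 71.5% and 73.8% of its reads in the inputs and 70.4% and 58.5% in the IPs. This holds for reads under the tRNA-Met name: with the placed reads named mmu-mir-6412-3p joined to them, reads beginning at position 1 were 65.0% and 68.3% in the inputs but 12.2% and 7.68% in the IPs, and reads that began after the anticodon loop were 11.7% and 9.21% in the inputs and 85.3% and 89.9% in the IPs. The shares that follow are again of reads under the tRNA-Met name. Reads from position 1 that ended within the anticodon loop were 66.8% and 69.7% in the inputs and 5.03% and 3.19% in the IPs. Reads from position 1 that ended before the loop were 4.69% and 4.13% in the inputs and 65.4% and 55.3% in the IPs. Reads that ended exactly at position 35, the last base of the anticodon, were 62.1% and 64.4% in the inputs and 3.14% and 4.26% in the IPs. Reads that began after the loop were 2.93% and 1.94% in the inputs and 15.1% and 23.4% in the IPs. The groups did not overlap in any of these 5 shares, though for reads that begin at position 1 they lay closest, with 70.4% in TDRKH IP 1 against 71.5% in input 1 (exact permutation p = 0.33 for each).

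The base at position 19 tells the 6-copy form from the 10-copy form, and the 2 forms had different shares in the groups. In the inputs the 6-copy form held 328 and 559 reads and the 10-copy form 162 and 247. In the IPs the 6-copy form held 38 and 18 reads and the 10-copy form 90 and 45. The 10-copy form was thus 33.1% (Wilson 95% interval 29.0% to 37.3%) and 30.6% (27.6% to 33.9%) in the inputs, and 70.3% (61.9% to 77.5%) and 71.4% (59.3% to 81.1%) in the IPs. The intervals of the groups do not overlap, though they cover counting error alone, and the exact permutation p was 0.33. Half-molecules alone showed the same order, at 28.7% and 28.6% in the inputs and 66.7% and 88.9% in the IPs, the latter from 18 and 9 reads. So did misc-tRF, at 35.2% and 35% in the inputs and 73.7% and 72.7% in the IPs. In the IPs these shares rest on 14 and 8 reads of the 10-copy form beside 5 and 3 of the 6-copy form. The half-molecules of the groups are unlike, though. From the first base, 342 and 574 reads ended in the anticodon loop in the inputs, but only 8 and 3 in the IPs. The other half-molecules of the IPs ended before the loop, so the forms were not compared on like reads. The misc-tRF were unlike as well. Reads from positions 2 to 30 that ended in the anticodon loop numbered 120 and 192 in the inputs but 4 and 9 in the IPs. Among 5p-tRF the groups overlapped: the 10-copy form was 83.3% and 40% in the inputs, from 24 and 30 reads, and 70.3% and 67.4% in the IPs.

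Position 9 was read as another base in about the same share in every library. Of reads that begin at position 1, 75.1% and 71.7% had the merged base G there in the inputs and 74.1% and 74.5% in the IPs. G9T was found in 12.02% and 13.5% of reads in the inputs and 13.4% and 10.9% in the IPs. G9C was found in 6.83% and 8.06% in the inputs and 7.14% and 9.09% in the IPs, and G9A in 6.01% and 6.74% in the inputs and 5.36% and 5.45% in the IPs. The difference between groups was within the spread of the libraries for G (exact permutation p = 1), G9T and G9C (exact permutation p = 0.667 each). For G9A both IPs were slightly below both inputs (exact permutation p = 0.33). At the other 27 positions with at least 10 reads in every library the share of other bases had a median of 0.574% and a highest value of 1.70% in the inputs, and a highest value of 4.92% in the IPs. The guanosine at position 9 of many tRNAs carries a methyl group that is known to make reverse transcriptase insert a wrong base. Whether the differences at position 9 come from it was not tested.

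**Figure D3:**
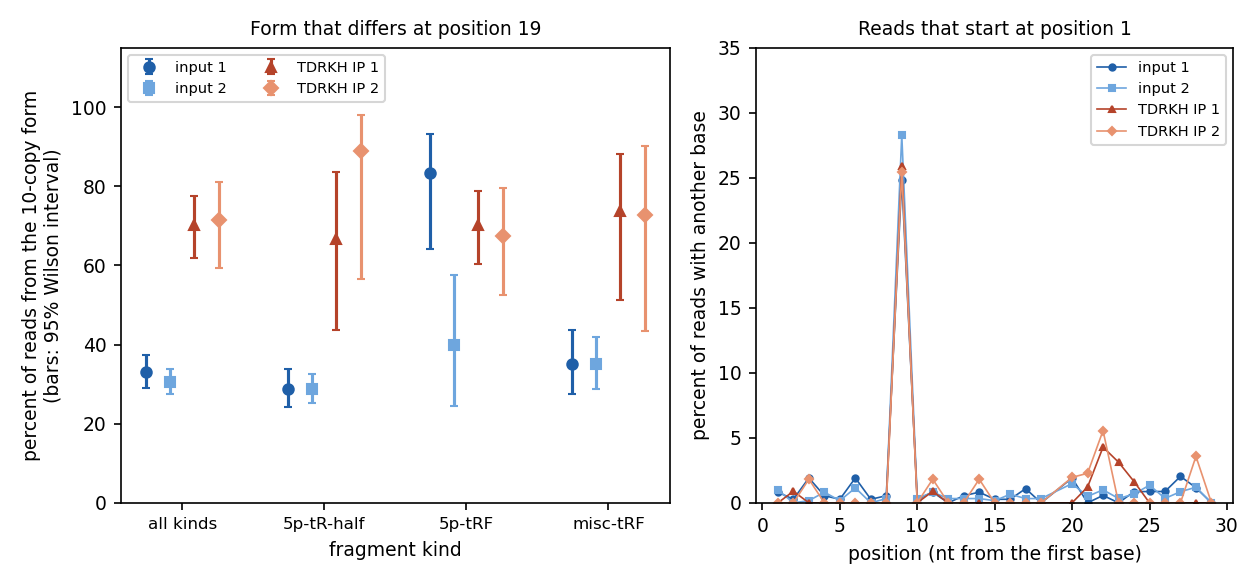
Left, percent of reads of the initiator-type copies that come from the 10-copy form, by fragment kind and library, with 95% Wilson intervals. Right, percent of reads beginning at position 1 that hold a base other than the merged one, by position. The IPs lie at 70.3% and 71.4% over all kinds against 33.1% and 30.6% in the inputs, and position 9 stands alone in all 4 libraries.

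The 3′ end of the same molecule was listed mostly under another name. A search for sequences without a tRNA-Met name that lie inside a read named only for tRNA-Met found 11 sequences, and 11 of these carried the mouse microRNA name mmu-mir-6412-3p, with a bracketed note of 1 base difference from that microRNA. This search, and its sequences, were chosen after the values were seen. The commonest of them equals positions 54 to 75 of the merged sequence, the part common to both forms, without a difference, and it is shown beside the form that lacks the last base.

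22 nt: tcgaaaccatcctctgctacca

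21 nt: tcgaaaccatcctctgctacc

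The 22-nt sequence had 34 and 32 reads in the inputs and 615 and 480 in the IPs, or 31.5 and 23.6 RPM against 55.2 and 43.4 RPM. Both IPs were above both inputs. The 21-nt sequence had 3 and 3 reads in the inputs and 92 and 85 in the IPs. All 21 sequences with that name held 51 and 66 reads in the inputs and 761 and 622 in the IPs, of which 94.1%, 95.5%, 99.6% and 99.4% could be placed on the merged tRNA without a difference. The merged tRNA at this end was itself built with these reads, but reads named tRNA-Met cover the same bases.

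All reads of that name stood at 47.25 and 48.7 RPM in the inputs and 68.3 and 56.2 RPM in the IPs, a log2 change of 0.37 ± 0.16 that missed the threshold (adjusted p = 0.068, edgeR over all names). Without TDRKH IP 2 the adjusted p was 0.022. Other scalings made it a rise, of 1.71 ± 0.14 with TMM factors (adjusted p = 6.7e-06, edgeR) and of 5.14 ± 0.27 with microRNA reads as library size (adjusted p = 4.5e-76, edgeR). The 22-nt sequence alone was higher in the IP by 0.85 ± 0.32 on the log2 scale (adjusted p = 0.023, edgeR over all sequences). That call ended without TDRKH IP 1 (0.29), without TDRKH IP 2 (0.11), without input 2 (0.11) and under DESeq2 with the same library sizes (0.058), these being adjusted p. It also ended with TMM factors, which moved the change to 0.17 ± 0.32 (adjusted p = 0.74, edgeR), while with microRNA reads as library size it was 5.62 ± 0.41 (adjusted p = 1.2e-41, edgeR).

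Counted as tRNA-Met, those reads change the account of the 3′ end. They were 8.85% and 7.29% of the joined reads in the inputs and 80.6% and 83.9% in the IPs. The 3p-CCA-tRF then had a log2 change of 0.05 ± 0.30 (adjusted p = 0.88, edgeR), and the 3p-tRF one of 0.14 ± 0.43 (adjusted p = 0.79). Among all nuclear tRNA reads of the kind 3p-CCA-tRF, tRNA-Met was then 8.67% and 9.70% in the inputs and 18.7% and 16.9% in the IPs, a rise of 0.95 ± 0.29 (adjusted p = 0.0063, edgeR), where the reads under the tRNA-Met name alone gave -2.49 ± 0.79 (adjusted p = 0.0090). The total of tRNA-Met changed by -2.99 on the log2 scale with these reads, in place of -5.35. Whether such reads of other tRNA types also carry microRNA names was not tested.

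**Figure D4:**
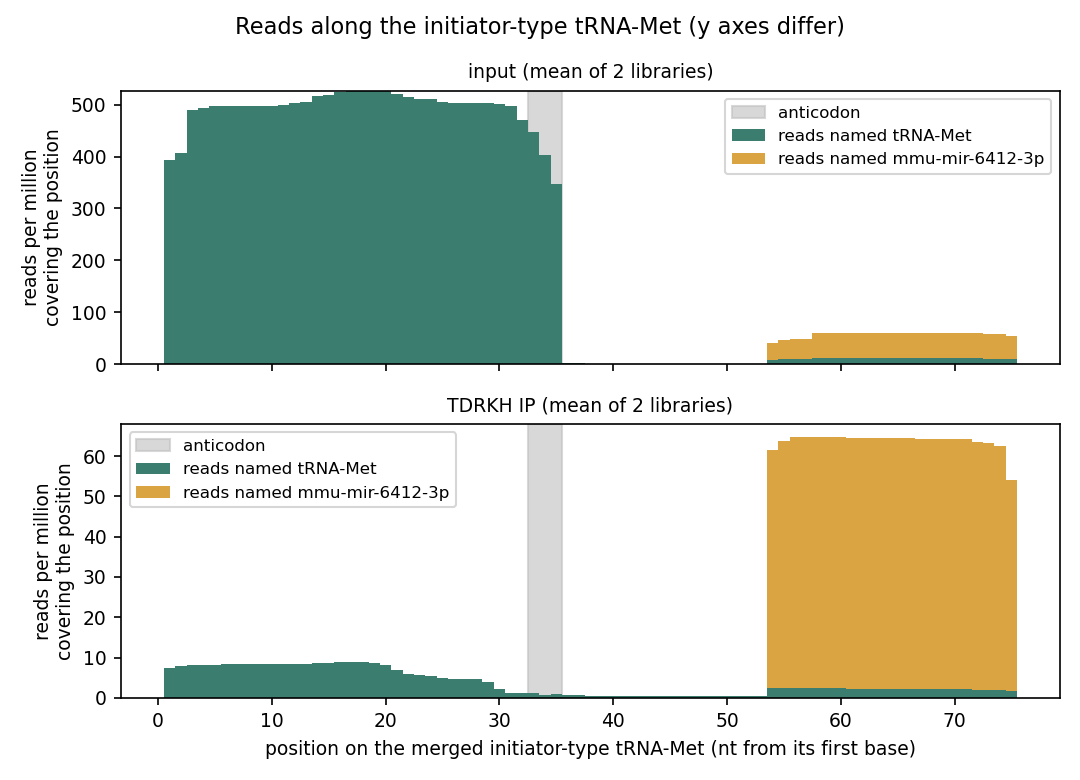
RPM of reads that cover each position of the merged initiator-type tRNA-Met, as the mean of 2 libraries, for reads named tRNA-Met and reads named mmu-mir-6412-3p, with the anticodon at positions 33 to 35 shaded and different y axes. In the input the 5′ part up to the anticodon holds most reads, and in the TDRKH IP the stretch from position 54 to 75 does, nearly all under the microRNA name.

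The smaller family of 12 copies had few reads but another pattern. It held 13 and 12 reads in the inputs, or 12.04 and 8.86 RPM, and 22 and 23 in the IPs, or 1.98 and 2.08 RPM. All 12 reads of 3p-tR-half in the study's tRNA-Met came from it, 4 and 8 in the inputs and none in the IPs. Reads that began in or beside the anticodon numbered 10 of 22 and 19 of 23 in the IPs, against 2 of 13 and 0 of 12 in the inputs. Of these, 9 and 15 in the IPs and none in the inputs were of 25 to 28 nt. The commonest, chosen after its values were seen, is shown with the anticodon in capitals.

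Smaller family, 25 nt: tCATaatctgaaggtcctgagttcg

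It had 2 and 4 reads in the IPs and none in the inputs, and was named misc-tRF from 8 copies. An input read weighs several times as much as an IP read, so a fragment at this level could be missed in the inputs.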

How the data were processed

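The deposited files hold counts: the authors listed each distinct sequence of a library with its whole-number read count and the names given by the unitas annotation tool, per the file headers and names. TRIZOL extraction, single-end NextSeq sequencing and the NEXTflex Small RNA-Seq Kit V3 were used, per the labels' protocols. The sources used here do not give the annotation settings or genome build. Listed reads were of 18 to 36 nt and all carried a name, so totals are of annotated reads (1079364, 1354003, 11138905 and 11060320). Counts include PCR copies, and intervals and floors (3 counts) cover counting error only.

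Reads of a sequence were divided equally among its names, and sums were rounded for the tests. The groups follow the antibody label. Names after filterByExpr, classes and types, kinds, and sequences of at least 10 RPM in 2 libraries were tested with edgeR 4.0.16 (quasi-likelihood, R 4.3.3), with listed reads as library size and Benjamini-Hochberg adjustment over the whole table at 0.05. In the fits within a kind, the reads of that kind were the library size and p was adjusted within the kind. The change divided by the square root of F served as SE, and the interval of a change is a normal 95% interval. Shares were compared by the exact two-sided permutation test (smallest p 0.33). The fits were also run on simulated libraries in which a minority of features with enough reads had known changes. That setting does not cover a fall of most features or counts near 0, so no result here rests on it. Initiator-type reads, with those named mmu-mir-6412-3p, were merged by extending the commonest half-molecule by the majority base after the last 9 bases, up to CCA, and reads were placed without gaps.

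Named names and sequences were the 5 highest by mean RPM in each group and, for sequences, the highest of each kind. The highest 3p-CCA-tRF and 3p-tR-half sequences had at most 7 reads in all and are not shown. Members, lists and tests were chosen with earlier results of these data known. Alternatives were TMM, DESeq2 1.42.0, microRNA or piRNA cluster reads as library size, a replicate block, other filters, merged or single-class names, distinct sequences, and each library left out. Counting reads named mmu-mir-6412-3p as tRNA-Met was added after the data were seen. Python 3.11.15 (pandas 2.3.3, numpy 2.4.6, matplotlib 3.10.9, scipy 1.17.1) did the rest.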

Additional observations from a re-analysis of the deposited data

Results flagged for a closer look

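Reads named mmu-mir-6412-3p are outside the reads named tRNA-Met, and their level in the IPs, 62.3 ± 8.5 RPM, was above that in the inputs, 48.0 ± 1.1 RPM (SD, n = 2 each, exact permutation p = 0.33). The difference over all names missed the threshold (adjusted p = 0.068, edgeR).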

How the results depend on the processing

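The fall of the tRNA-Met total and of the 5p-tR-half kept its direction in every alternative run, and its call too, except for the total with microRNA reads as library size (-0.56, adjusted p = 0.21). Their size did not hold: TMM factors and DESeq2's own size factors gave -2.70 and -2.36 for the total and -5.95 and -4.77 for 5p-tR-half, which microRNA reads put at -3.43. That scaling also ended the calls of misc-tRF (-0.59) and 3p-tR-half (-5.04), and reversed 3p-CCA-tRF (1.17), 3p-tRF (3.17) and 5p-tRF (2.999). Under TMM factors 3p-CCA-tRF was at -1.24, 3p-tRF at 0.93 and 5p-tRF at 0.53, and under DESeq2's own size factors 3p-CCA-tRF was at -0.16, 3p-tR-half at -4.72, 3p-tRF at 1.90 and 5p-tRF at 1.64. These scalings moved the median log2 change over all 213 kinds and classes from -5.10 to -2.84 (TMM), -1.87 (DESeq2) and -1.11 (microRNA reads). DESeq2 on listed reads left 3p-tRF at -1.61 without a call. With each distinct sequence counted once 3p-tRF was at -1.26 and 5p-tRF at -0.52, both without a call. Within 5p-tRF, sequences of 1 class gave -1.0001. The cause was not tested.

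With reads named mmu-mir-6412-3p added, 3p-CCA-tRF was at 0.055 and 3p-tRF at 0.14, and within the kind at 0.95 and 0.51. The share differences (IP minus input, percentage points) then were -45.8 at 35 nt, 71.6 at 18 to 24 nt, 2.91 at 25 to 30 nt, -59.1 for first base A, -3.82 for G and 75.3 for T, and the mean length differed by -9.03 nt. With each distinct sequence counted once they were -24.5 at 35 nt, 31.6, 27.98 and -59.6 for the classes from short to long, -3.39 for A, -15.2 for C, -1.61 for G (0.011 as reported), and -5.81 nt.

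Of tRNA-Met names, 31 were lower as reported, 12 with at least 10 RPM in 2 libraries and 7 after names with the same reads were merged. Of sequences, 7 were lower as reported, 13 after filterByExpr and 1 at 50 RPM. Leaving out 1 library gave 12 to 22 names (12 without input 2), -4.17 to -3.09 for 3p-CCA-tRF, -8.54 to -7.46 for 3p-tR-half, -2.27 to -0.37 for 3p-tRF and -2.35 to -1.38 for 5p-tRF. The lone library was then assumed to vary like the other group. Libraries share only a replicate number (correlation of deviations 0.089 over 1856 names). With the number as a block 3p-tRF lost its call (-1.49), and 31 names stayed lower by count.

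Depth limits the 3′ kinds and the smaller family most, at 0 to 23 reads a library.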
